A study of Homo sapiens with 6 samples.

Results

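The genes described here encode subunits of the Polycomb repressive complexes and the enzymes that oppose them. They were taken from a list of 47 gene symbols. A gene was measured when at least 1 probe set of the array carried its symbol and no other symbol in the platform annotation. This gave 43 of the 47 genes, out of 18132 genes measured in all, and 149 of the 49293 probe sets tested. BMI1 was not counted as measured because both probe sets that name it also name the read-through gene COMMD3-BMI1, and RNF2, CBX8 and BAP1 were not analysed here. RNA came from U87 cells, an established line that the labels call human glioma cells. The 3 knockdown arrays carried RNA of U87 cells transduced with a lentiviral short hairpin (PCGF1-shRNA). The 3 control arrays carried RNA of U87 cells with the negative control (NC) lentivirus. The medium of both was DMEM containing fetal bovine serum. The labels do not say how many hairpins were used or whether the cells were a pool or 1 clone.

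The sample names add T0 to every knockdown array and T1 to every control array, and what these stand for cannot be told apart from the knockdown. The arrays are labelled as biological replicates. Whether separate cultures stood behind them is not stated, and p-values then reflect only the spread among these arrays, part of which may be technical. Every value below is a log2 signal relative to the median of the same probe set over the 6 arrays. Such values show differences between arrays and carry no level, so genes cannot be ranked by expression, nor can the glioma label be checked against the presence of marker genes. None of 9 measured leukocyte and endothelial markers and none of 6 epithelial markers was called changed by limma, with 1 gene of each list at an unadjusted p under 0.05. Over all genes 11% were called and 26.6% had an unadjusted p under 0.05. In lists this short, a count of 0 called lies near the share of all genes. In RNA from whole cultures, fewer cells that express a gene and less RNA of it per cell cannot be told apart.

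Polycomb proteins keep genes silent through marks on histones. PRC1 attaches ubiquitin to histone H2A through the RING1 or RNF2 ligase, which works when paired with a PCGF protein, and the PCGF protein decides which other subunits join. PCGF1 builds PRC1.1, which is brought to unmethylated CpG islands by KDM2B. PRC2 methylates histone H3 through EZH1 or EZH2. The deubiquitinase BAP1 with its ASXL partners and the histone H3 demethylases KDM6A and KDM6B remove these marks.

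Among the 43 measured genes, 4 fell and 2 rose in the knockdown arrays. The genes that fell were PCGF1 itself, RYBP, DCAF7 and PHF19, and those that rose were BCOR and EZH1. The threshold was an adjusted p under 0.05, from limma on the average of a gene's probe sets with Benjamini-Hochberg adjustment over all genes. Across all 18132 genes, 11% were called, 6.36% as higher and 4.63% as lower, and among the 43 genes the share was 14%. The median log2 fold change was 0.02 over the 43 genes and -0.0081 over all genes, and the median size without regard to sign was 0.08 and 0.07. The knockdown and control arrays did not overlap for 15 of the 43 genes, or 34.9%, where 32.7% of all genes had no overlap. An unadjusted p under 0.05 was likewise found for 15 of the 43 genes, against 26.6% of all genes. By these counts the Polycomb genes changed about as often as genes in general.

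**Figure D1:**
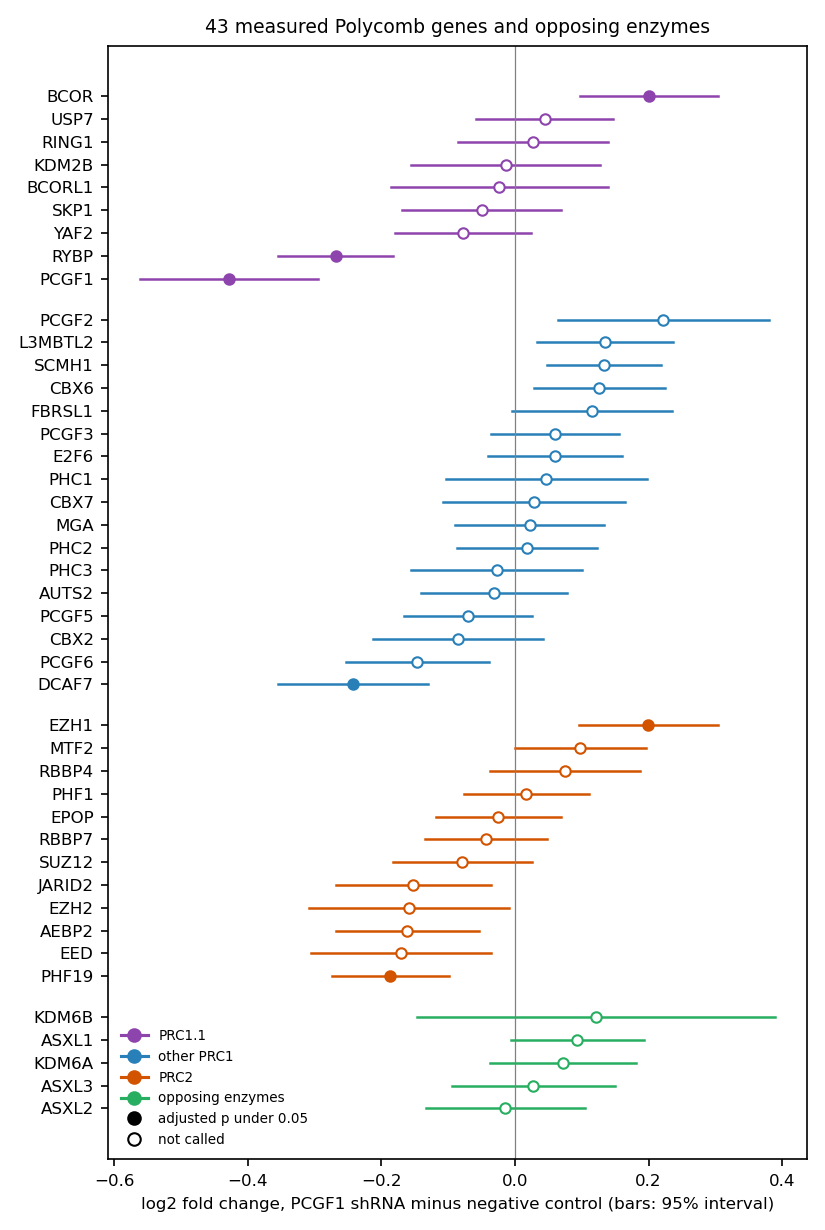
Log2 fold change of each of the 43 measured genes (x axis, PCGF1 shRNA minus negative control, 3 arrays each) with its 95% interval from limma, grouped by complex and ordered by size. Filled points are the 6 genes called at an adjusted p under 0.05, from PCGF1 at -0.43 to BCOR at 0.20, and the open point of PCGF2 lies further right at 0.22 with a wider interval.

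The promoters of the 4 called genes with a single start in the RefSeq table are shown because KDM2B binds unmethylated CG pairs. Each is the 250 bases before the start on the gene's strand, in GRCh38.p14, with every CG in capitals. PCGF1 lies at chr2:74507696-74507945 (minus strand), RYBP at chr3:72446624-72446873 (minus), DCAF7 at chr17:63550227-63550476 (plus) and EZH1 at chr17:42745041-42745290 (minus).
PCGF1: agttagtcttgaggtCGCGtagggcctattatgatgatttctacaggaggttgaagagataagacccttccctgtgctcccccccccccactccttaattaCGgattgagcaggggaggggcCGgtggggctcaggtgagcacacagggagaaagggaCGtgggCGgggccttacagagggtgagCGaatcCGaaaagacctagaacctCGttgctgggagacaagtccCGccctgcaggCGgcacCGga
RYBP: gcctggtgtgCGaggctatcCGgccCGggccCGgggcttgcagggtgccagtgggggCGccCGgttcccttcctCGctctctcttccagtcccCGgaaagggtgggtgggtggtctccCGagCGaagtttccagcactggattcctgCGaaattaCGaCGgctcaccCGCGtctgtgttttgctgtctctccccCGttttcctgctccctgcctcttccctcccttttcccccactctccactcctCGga
DCAF7: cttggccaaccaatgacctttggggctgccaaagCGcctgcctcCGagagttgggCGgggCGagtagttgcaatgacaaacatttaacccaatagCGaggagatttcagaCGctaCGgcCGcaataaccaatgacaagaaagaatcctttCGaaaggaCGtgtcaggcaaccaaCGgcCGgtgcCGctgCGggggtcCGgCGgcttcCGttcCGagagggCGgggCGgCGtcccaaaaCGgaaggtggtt
EZH1: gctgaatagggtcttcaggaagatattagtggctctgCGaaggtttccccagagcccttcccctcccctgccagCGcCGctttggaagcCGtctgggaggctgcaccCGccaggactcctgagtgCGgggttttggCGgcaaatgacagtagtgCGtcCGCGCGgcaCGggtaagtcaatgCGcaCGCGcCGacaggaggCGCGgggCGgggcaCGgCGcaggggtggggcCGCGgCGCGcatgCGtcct
The motif searched was CG, which reads the same on both strands. The number of CG pairs was 12 for PCGF1, 17 for RYBP, 22 for DCAF7 and 26 for EZH1. Of all 35116 promoter windows of this length, 93.9% held at least 1 CG. At least as many CG pairs as in PCGF1 stood in 48.5% of windows, as in RYBP in 39.0%, as in DCAF7 in 28.0% and as in EZH1 in 19.6%. Promoter windows were listed for 43 of the 47 gene symbols, 68 windows in all, with a median of 26.5 CG pairs against 11 over all windows. These counts describe sequence and say nothing on whether KDM2B was bound there in U87 cells.

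PCGF1, the targeted gene, was lower in all 3 knockdown arrays. Its log2 signal was -0.27, -0.13 and -0.19 in the knockdown arrays, against 0.13, 0.27 and 0.29 in the control arrays, and the groups did not overlap. The mean was -0.20 ± 0.07 in knockdown and 0.23 ± 0.09 in control arrays (SD, n = 3 each). The array signal was 74.3% of the control signal (95% interval 67.8 to 81.5%), a log2 fold change of -0.43 ± 0.06 (SE, limma adjusted p = 0.00410). Distance from background is unknown, so the share of PCGF1 transcript that remained cannot be read from this value. The two-sided exact permutation test gave p = 0.1, the smallest that 3 against 3 arrays allow. The annotation gives PCGF1 a single probe set, so no second measurement of the gene was available.

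The PCGF family holds alternative partners of the ligase, each found in a PRC1 complex of its own. Of the 4 measured paralogues of PCGF1, none was called changed by limma (0 of 4, with 2 at an unadjusted p under 0.05, and 1 called under each of 2 other settings). Over all genes 11% were called and 26.6% had an unadjusted p under 0.05. With only 4 genes, a count of 0 called lies near the share of all genes. PCGF2, also known as MEL18 and a subunit of canonical PRC1, was at 0.16, 0.0053 and 0.17 in the knockdown arrays, against -0.13, -0.22 and 0.0079 in the control arrays. Replicates 1 and 3 of the knockdown were above every control array, while replicate 2 lay just below control replicate 3. Its log2 fold change of 0.22 had a 95% interval of 0.06 to 0.38 (adjusted p = 0.0790). All 3 of its probe sets were higher in knockdown, by 0.13, 0.15 and 0.39. With the median of its probe sets in place of their mean it passed, at 0.19 (adjusted p = 0.0475).

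PCGF6, the paralogue that defines the germline gene repressor PRC1.6, was on the other side of 0. It was at -0.15, -0.10 and -0.02 in the knockdown arrays, against 0.07, 0.08 and 0.02 in the control arrays, and the groups did not overlap. The log2 fold change was -0.15 (95% interval -0.25 to -0.04, adjusted p = 0.0846) and rests on 1 probe set. With robust regression it passed, at -0.15 (adjusted p = 0.0388).

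PCGF3 and PCGF5 form the closely related complexes PRC1.3 and PRC1.5. PCGF3 was at -0.02, 0.04 and 0.07 in the knockdown arrays, against -0.02, -0.01 and -0.06 in the control arrays, with overlap between the groups, and its log2 fold change was 0.06 (95% interval -0.04 to 0.16). PCGF5 was at -0.08, -0.03 and -0.03 in the knockdown arrays, against -0.03, 0.05 and 0.06 in the control arrays, again with overlap, and its log2 fold change was -0.07 (95% interval -0.17 to 0.03). Their probe sets disagreed in sign. The 3 probe sets of PCGF3 ran from -0.07 to 0.17, the highest, 11739196_a_at, without overlap between the groups (adjusted p = 0.0800), and the 5 of PCGF5 from -0.17 to 0.14, 4 of them below 0. None of these 8 probe sets passed on its own. The interval of PCGF2 lay wholly above 0, that of PCGF6 wholly below 0, and those of PCGF3 and PCGF5 spanned it. Without levels, how far any of these transcripts could make up for PCGF1 in amount cannot be read from the values.

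BMI1, also known as PCGF4 and like PCGF2 a subunit of canonical PRC1, is the fifth paralogue, and its 2 probe sets were annotated to the read-through COMMD3-BMI1 as well. Probe set 11756843_a_at was at -0.12, -0.10 and -0.03 in the knockdown arrays, against 0.03, 0.06 and 0.14 in the control arrays, without overlap, a log2 fold change of -0.16 (95% interval -0.29 to -0.04, limma adjusted p = 0.120 over all probe sets). Probe set 11743395_s_at was at 0.01, -0.01 and -0.12 in the knockdown arrays, against -0.09, 0.01 and 0.03 in the control arrays, with overlap, a log2 fold change of -0.02 (95% interval -0.16 to 0.11). Both were below 0 and neither passed, and they cannot be given to BMI1 alone.

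**Figure D2:**
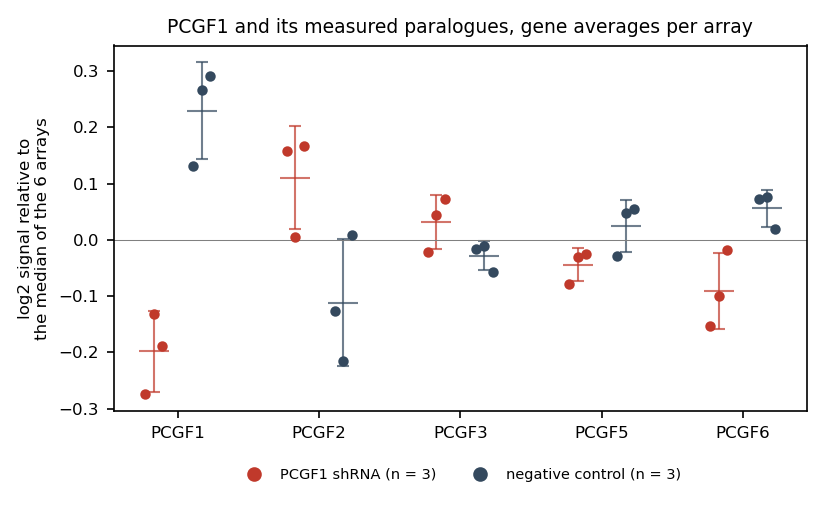
Log2 signal relative to the median of the 6 arrays (y axis) for PCGF1 and its 4 measured paralogues, 1 point per array, with the PCGF1 shRNA arrays left of the negative control arrays and horizontal marks with bars for the mean ± SD (n = 3 each). The groups are apart for PCGF1 and PCGF6, both lower in knockdown, and overlap for PCGF2, PCGF3 and PCGF5.

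Among the 9 measured genes of PRC1.1, PCGF1 included, 2 fell, 1 rose and 6 did not pass, or 33.3% called against 11% of all genes, the targeted gene being 1 of the 3. RYBP, which with its relative YAF2 binds the ligase and is shared by all variant PRC1 complexes, was at -0.10, -0.14 and -0.08 in the knockdown arrays, against 0.18, 0.14 and 0.16 in the control arrays. The 6 values form 2 tight groups with a wide gap between them. RYBP fell by 0.27 ± 0.04 on the log2 scale (SE, limma adjusted p = 0.00468), which is 83% of the control signal (95% interval 78.2 to 88.1%). Its 4 probe sets were all lower, from -0.36 to -0.21, and 3 of them passed on their own. The call was lost with plain _at probe sets alone (-0.21, adjusted p = 0.138).

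YAF2, which takes the place of RYBP in some complexes, was at -0.07, 0.04 and -0.05 in the knockdown arrays, against 0.02, 0.08 and 0.05 in the control arrays, and the groups overlapped through knockdown replicate 2. The log2 fold change of YAF2 was -0.08 (95% interval -0.18 to 0.02, adjusted p = 0.307), with 4 of 5 probe sets negative. The positive one, 11758007_s_at, was at 0.09, with knockdown replicate 2 at 0.27. Without _s_at and _x_at probe sets YAF2 was at -0.13 and still did not pass (adjusted p = 0.122).

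BCOR, the scaffold that joins PCGF1 to KDM2B, was at 0.13, 0.13 and 0.08 in the knockdown arrays, against -0.16, -0.05 and -0.06 in the control arrays, with no overlap. It rose by 0.20 ± 0.04 (SE, limma adjusted p = 0.0275), or to 115% of the control signal. All 3 of its probe sets were higher, by 0.09, 0.22 and 0.29, and the last alone passed. The call was lost when any 1 of the 6 arrays, replicates 1 to 3 of either group, was left out (log2 fold change 0.17 to 0.22, adjusted p 0.0558 to 0.0826), and with the most variable probe set (0.22, adjusted p = 0.225). BCORL1, the alternative scaffold, was at 0.12, -0.04 and -0.01 in the knockdown arrays, against 0.01, 0.18 and -0.07 in the control arrays, with full overlap. This gave a log2 fold change of -0.02 (95% interval -0.19 to 0.14).

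The remaining PRC1.1 genes stayed within the spread of the arrays. KDM2B, the CpG island reader, had a log2 fold change of -0.01 (95% interval -0.16 to 0.13), and its 5 probe sets ran from -0.05 to 0.0056. RING1, the measured ligase, was at 0.03 and the deubiquitinase USP7 at 0.04. SKP1, an adaptor that PRC1.1 shares with ubiquitin ligases of the SCF type, was at -0.05. Their adjusted p-values were 0.586 to 0.916, and in all 4 genes the groups overlapped.

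Of the 17 other measured PRC1 genes 1 fell, 0 rose and 16 did not pass, or 5.88% called against 11% of all genes. An unadjusted p under 0.05 was found for 6 of the 17, or 35.3%, against 26.6% of all genes. DCAF7, a WD repeat protein found with PCGF3 and PCGF5 complexes, was at -0.13, -0.20 and -0.07 in the knockdown arrays, against 0.17, 0.09 and 0.07 in the control arrays. Every knockdown array lay below every control array, and all 6 of its probe sets were lower, from -0.38 to -0.16. It fell by 0.24 ± 0.05 (SE, limma adjusted p = 0.0188). Leaving out replicate 1 or 2 of the knockdown, or replicate 1 or 2 of the control, ended the call, with log2 fold changes of -0.24, -0.21, -0.21 and -0.25 (adjusted p 0.0534 to 0.0614). AUTS2 and FBRSL1, related proteins of the same complexes, had log2 fold changes of -0.03 and 0.12, and neither passed (adjusted p = 0.728 and 0.201). The value of FBRSL1 is the average of probe sets at -0.05 and 0.28.

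Canonical PRC1 holds a CBX protein, which reads the mark of PRC2, and a PHC protein, which polymerises. CBX6 was at 0.12, 0.01 and 0.05 in the knockdown arrays, against -0.04, -0.09 and -0.06 in the control arrays as a gene average, with no overlap. Its log2 fold change of 0.13 did not pass (95% interval 0.03 to 0.23, adjusted p = 0.101). Its 2 probe sets disagreed. The probe set 11720082_at rose by 0.28 (adjusted p = 0.0298 over all probe sets), whereas 11720081_a_at was at -0.03. CBX2 had a log2 fold change of -0.08. CBX7 was at 0.03, the average of probe sets at -0.17 and 0.23.

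PHC3 was at -0.05, 0.09 and -0.03 in the knockdown arrays, against 0.0058, -0.03 and 0.11 in the control arrays, with full overlap and a log2 fold change of -0.03. Of its 8 probe sets only 11722281_a_at was called, at -0.23 (adjusted p = 0.0499), just inside the threshold. PHC1 and PHC2 were at 0.05 and 0.02. SCMH1, a further partner of PHC proteins, was the gene nearest to the threshold among those not called. It was at 0.08, 0.05 and 0.06 in the knockdown arrays, against -0.06, -0.06 and -0.10 in the control arrays, without overlap, and its log2 fold change was 0.13 (95% interval 0.05 to 0.22, adjusted p = 0.0578). In PRC1.6, the complex of PCGF6 (itself at -0.15 and not called), 3 further listed genes were measured. L3MBTL2 was at 0.13 (adjusted p = 0.0939), E2F6, a repressive E2F factor, at 0.06 and MGA, a partner of MAX, at 0.02.

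**Figure D3:**
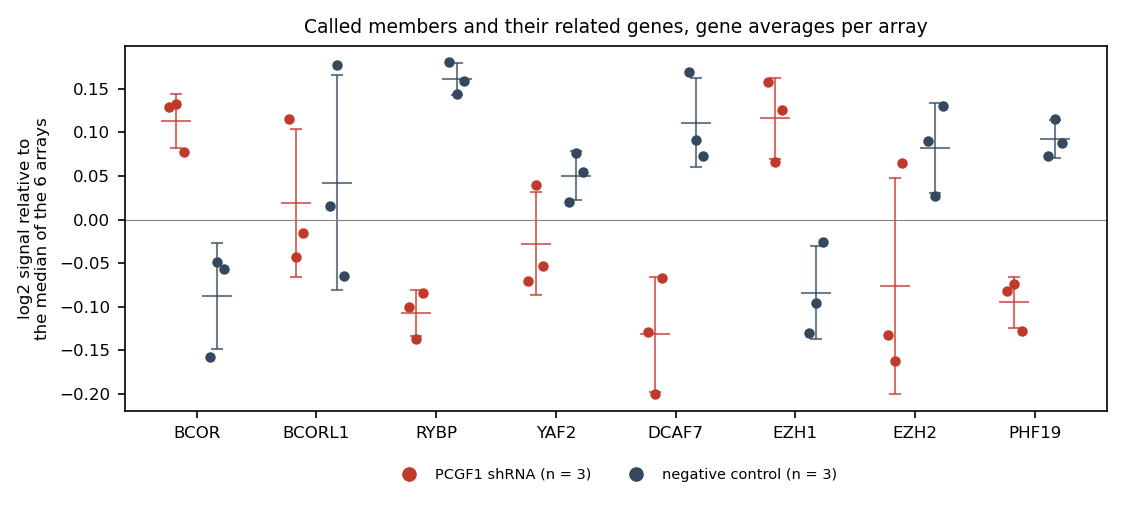
Log2 signal relative to the median of the 6 arrays (y axis) for the called genes other than PCGF1 and for related genes, 1 point per array, PCGF1 shRNA left of negative control, with horizontal marks and bars for the mean ± SD (n = 3 each). RYBP, DCAF7 and PHF19 are lower and BCOR and EZH1 higher in knockdown without overlap, while BCORL1, YAF2 and EZH2 overlap.

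All 12 listed PRC2 genes were measured, and 1 rose, 1 fell and 10 did not pass, or 16.7% called against 11% of all genes. An unadjusted p under 0.05 was found for 6 of the 12, or 50%, against 26.6% of all genes, and the groups did not overlap for 6 of the 12, against 32.7% of all genes. EZH1, the methyltransferase typical of non-dividing cells, was at 0.16, 0.07 and 0.13 in the knockdown arrays, against -0.13, -0.10 and -0.03 in the control arrays, without overlap. It rose by 0.20 ± 0.05 (SE, limma adjusted p = 0.0295). Its 3 probe sets were all higher, from 0.08 to 0.30, but none passed on its own. Leaving out replicate 1 or 3 of the knockdown, or replicate 1 or 2 of the control, ended the call, with log2 fold changes of 0.18, 0.20, 0.18 and 0.19 (adjusted p 0.0884 to 0.0911). The call was also lost with the median of the probe sets (0.19, adjusted p = 0.0820), with the most variable probe set (0.30, adjusted p = 0.0658) and with plain _at probe sets alone (0.22, adjusted p = 0.233).

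EZH2, the methyltransferase of dividing cells, was at -0.13, -0.16 and 0.07 in the knockdown arrays, against 0.09, 0.03 and 0.13 in the control arrays. Knockdown replicates 1 and 2 lay below all control arrays and replicate 3 among them. The log2 fold change of EZH2 was -0.16 (95% interval -0.31 to -0.0094, adjusted p = 0.163), and without knockdown replicate 3 it was -0.23 and passed (adjusted p = 0.0467).

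EED, the core subunit that binds the PRC2 mark, was at -0.01, -0.19 and -0.09 in the knockdown arrays, against 0.10, 0.14 and -0.01 in the control arrays, and the groups were separated only narrowly. Its average log2 fold change was -0.17 (95% interval -0.31 to -0.04, adjusted p = 0.106). Probe set 11753489_a_at fell by 0.41 (adjusted p = 0.0255) and 11750166_a_at was at -0.22 (adjusted p = 0.0520), while the other two were at -0.05 and -0.005. The core subunit SUZ12 was at -0.08, and the histone-binding subunits RBBP4 and RBBP7, which also serve other chromatin complexes, at 0.07 and -0.04.

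The accessory subunits split PRC2 into PRC2.1 and PRC2.2. In PRC2.2, JARID2 was at -0.15 (95% interval -0.27 to -0.04, adjusted p = 0.0960) and AEBP2 at -0.16 (95% interval -0.27 to -0.05, adjusted p = 0.0642). All 5 probe sets of each were lower, though none passed on its own and the groups overlapped in most of them. As gene averages the groups did not overlap, yet neither gene passed. In PRC2.1, PHF19, one of 3 Polycomb-like proteins, was at -0.08, -0.07 and -0.13 in the knockdown arrays, against 0.07, 0.12 and 0.09 in the control arrays, without overlap. It fell by 0.19 ± 0.04 (SE, limma adjusted p = 0.0197). This average rests on 1 of 3 probe sets. The _s_at probe set 11736133_s_at was at -0.22, -0.38 and -0.30 in the knockdown arrays, against 0.28, 0.26 and 0.22 in the control arrays, a fall of 0.55 (adjusted p = 0.00247), and the other two were at -0.03 and 0.02. Without _s_at and _x_at probe sets, which can match several genes or regions, PHF19 was at -0.0032 (adjusted p = 0.978), and with the median of its probe sets at -0.06 (adjusted p = 0.555). Leaving out replicate 1 or 3 of the knockdown, or replicate 2 or 3 of the control, ended the call too, with log2 fold changes of -0.19, -0.17, -0.17 and -0.19 (adjusted p 0.0524 to 0.0743). The other Polycomb-like genes, MTF2 and PHF1, were at 0.10 and 0.02, and EPOP, another PRC2.1 subunit, at -0.03.

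Proliferation genes were lower in the same arrays. Of 18 measured proliferation genes 8 fell and 0 rose, or 44.4% called lower against 4.63% of all genes. Their median log2 fold change was -0.17, against -0.0081 over all genes. Their mean log2 signal ran from -0.11 to -0.07 in knockdown and 0.07 to 0.09 in control arrays. Their part in the values of EZH1, EZH2 and the other PRC2 genes was not tested.

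Of the 5 opposing enzymes and cofactors among the 43 measured genes, none was called by limma, and none had an unadjusted p under 0.05. Their knockdown and control arrays overlapped in every case. Over all genes 11% were called, 26.6% had an unadjusted p under 0.05 and 32.7% had no overlap. With only 5 genes, a count of 0 called lies near the share of all genes. ASXL1, the cofactor of BAP1 with 7 probe sets, 6 of them positive, was at 0.08, 0.0097 and 0.09 in the knockdown arrays, against -0.07, -0.04 and 0.01 in the control arrays. Its log2 fold change was 0.09 (95% interval -0.0064 to 0.19, adjusted p = 0.216). ASXL2 and ASXL3 were at -0.01 (95% interval -0.13 to 0.10) and 0.03 (95% interval -0.09 to 0.15). The demethylase KDM6A had a log2 fold change of 0.07 (95% interval -0.04 to 0.18). KDM6B, an inducible demethylase, was at 0.05, 0.35 and -0.13 in the knockdown arrays, against 0.11, -0.14 and -0.07 in the control arrays, and knockdown replicate 2 stood far above the rest. Its log2 fold change of 0.12 had the wide interval of -0.15 to 0.39.

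Single probe sets often disagreed within a gene. Of the 37 genes with 2 or more probe sets, 15 had all of them on one side of 0 and 22 had some on each side. How often this occurs over all genes was not counted, so it is not shown to be particular to these genes. The median distance between a gene's lowest and highest probe set was 0.21 on the log2 scale, larger than most of the gene averages. Tested one by one, 12 of the 149 probe sets were called, 2 as higher and 10 as lower, or 8.05%. Over all 49293 probe sets the share was 7.24%, with 4.3% called higher and 2.94% lower. The called probe sets belonged to 8 genes, of which CBX6, PHC3 and EED were not called as averages. EZH1 was the 1 called gene without a called probe set.

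**Figure D4:**
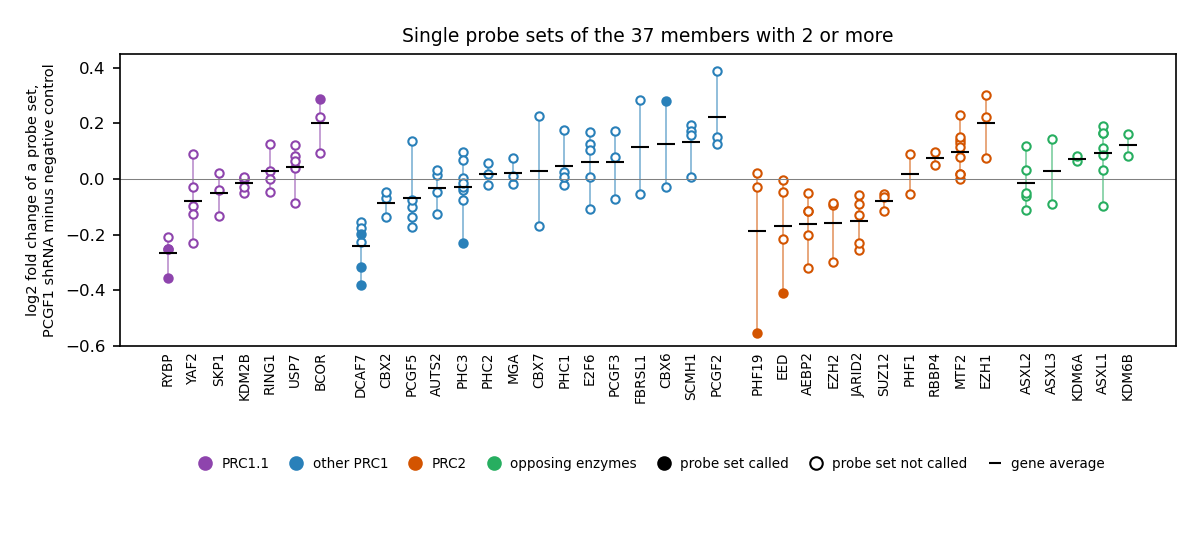
Log2 fold change of every single probe set (y axis, PCGF1 shRNA minus negative control, 3 arrays each) of the 37 genes with 2 or more, grouped by complex and ordered by the gene average, which is drawn as a black bar. Filled points passed on their own, and the range is widest for PHF19, from -0.55 to 0.02, while the 4 probe sets of RYBP lie close together.

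Other genes linked to Polycomb were counted from a list of 38, all measured, such as PRC1.6 partners, kinase and deacetylase subunits and BAP1 partners. The list also holds genes that act against Polycomb, such as USP16 and KMT2C, neither of them called. Of the 38 genes 4 rose, 1 fell and 33 did not pass, or 13.2% called against 11% of all genes. Their median log2 fold change was -0.00061. The 5 genes are named after their values were seen. L3MBTL1, MBTD1 and SCML2, which carry MBT repeats like the listed genes SCMH1 and L3MBTL2, rose by 0.33, 0.26 and 0.22 (limma adjusted p = 0.0332, 0.0130 and 0.0212). SCMH1 and L3MBTL2 themselves were not called. Nor were SFMBT1 and SFMBT2, MBT genes of the same list, at -0.0092 and -0.016 (adjusted p = 0.936 and 0.918). MBD5, which binds the BAP1 complex, rose by 0.31 (adjusted p = 0.00923), and BCL6, a repressor that recruits BCOR, fell by 0.16 (adjusted p = 0.0459).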

How the data were processed

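Expression was measured on 6 Affymetrix arrays. The authors used RMA, per the submitters' processing notes; its version is not given in the sources used here. The deposited values are taken as log2, since RMA gives that scale, and the median of every probe set over the 6 arrays is 0 (largest departure 4.85e-07), a centring that no source describes. Array medians lay between -0.0023 and 0.0039, so no further normalization was applied. After 102 control probe sets were left out of 49395, 44988 of 49293 had 1 gene symbol, 1832 several and 2473 none. Gene IDs of 44961 were found in the RefSeq table of GRCh38.p14, and 0 symbols differed.

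The single-symbol probe sets of a gene were averaged. limma 3.58.1 under R 4.3.3 (lmFit, then eBayes, with two-sided tests and no covariates) tested knockdown against control, with Benjamini-Hochberg adjustment over 18132 genes or, for single probe sets, over 49293. Intervals are 95% and use limma's spread. The number of arrays limits the precision. The procedure was tested on simulated data with independent noise. The conditions on calls and effect size concerned changes larger than those of the Polycomb genes.

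The members, the other gene lists and the tests were chosen with earlier results of these data known. Array values are given for PCGF1, its paralogues, each called member and each member with a called probe set, and for further genes chosen after their values were seen. Alternatives were quantile normalization, array centring, weighted arrays, a block for the replicate number, other probe set choices, robust regression and leaving out each array.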

Additional observations from a re-analysis of the deposited data

How the results depend on the processing

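PCGF1 was called lower under all 15 alternatives that measured it (log2 fold change -0.48 to -0.39, adjusted p 0.0028 to 0.0195), and RYBP under 14 of 15. PCGF1 has 1 probe set, so the alternatives that choose among probe sets and kept it reused the same values. Of the 88 comparisons of the 6 called genes with an alternative, 59 kept the call and 29 lost it: 8 of 14 for BCOR, 8 of 15 for EZH1, 7 of 14 for PHF19, 5 of 15 for DCAF7 and 1 of 15 for RYBP. Of the 536 comparisons of the 37 other genes, 10 gained a call. These were 2 each for CBX6 and SCMH1, and 1 each for PCGF2, PCGF6, FBRSL1, EZH2, EED and AEBP2. No called value changed sign. Quantile normalization and centring each array on its median changed no count of calls by more than 1.5 times. The replicate number as a block gave 1036 genes called in all, 0 members higher and 2 lower, 0 other PRC1 and 0 PRC2 members, with PCGF1 at -0.43 (adjusted p = 0.00902). Same-numbered arrays did not deviate together (r = -0.04, -0.06 and -0.0010), 0 of 6 arrays correlated best with its own number, and the numbers were not taken as pairs. Array weights gave 2 other PRC1 members. The most variable probe set gave 1 member higher and 2 other PRC1 members. The median of probe sets gave 2 other PRC1 members, 0 PRC2 members and 1 PCGF paralogue. Without _s_at and _x_at probe sets 1 PRC2 member was called. With plain _at probe sets alone, an alternative added after seeing the data that drops most probe sets and PCGF1 itself, 288 genes were called, 1 member higher and 1 lower, 0 in PRC1.1, 2 in other PRC1 and 0 in PRC2. Robust regression called 3116 genes, 4 members higher, 4 other PRC1 members and 1 PCGF paralogue. As single probe sets, 3571 were called, with 3 other PRC1 members. Leaving out 1 array gave 980 to 1402 genes, 0 to 1 members higher, 2 to 4 lower, 2 PRC1.1, 0 to 1 other PRC1 and 0 to 2 PRC2 members, with less power from fewer arrays. The cause of the other shifts was not tested. Distance from background is unknown for every gene, because centred values hold no signal level.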

Other observations

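Probe sets that carry 2 symbols were not assigned to a gene. The probe set shared by SKP1 and the pseudogene SKP1P2 was at -0.05, -0.08 and -0.09 in the knockdown arrays, against 0.09, 0.08 and 0.05 in the control arrays, without overlap (log2 fold change -0.14, limma adjusted p = 0.114).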
